A study of Canis lupus familiaris with 6 samples.

Results

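The genes described here encode the acid compartment of the cell: the subunits of the vacuolar proton pump and a list of 27 lysosomal enzymes, membrane proteins, cofactors and a regulator. Members were taken by gene symbol, as the listed names plus all symbols that begin with ATP6V0 or ATP6V1 other than ATP6V0D2. The rule holds no cut on measured values, but earlier results of these data were known when members were chosen. The array carried 100 probe sets annotated to 47 such genes, out of 15153 genes in all. They comprise 21 pump subunits (8 of the membrane sector V0 and 13 of the cytosolic sector V1), 17 hydrolases, 5 membrane proteins and 4 cofactors and regulators. CTSL, the gene of cathepsin L, had no probe set annotated to it here.

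Specimens were bone cylinders (4.5 mm by 8 mm) from mandibles of beagle dogs, aged 9 years, that had healed for 3 months after loss of the premolars before holes were drilled. A hole was either left without implant (treatment "none", called control here) or received beta-TCP, beta-tricalcium phosphate, a resorbable ceramic used as bone substitute. Bone was taken at 4, 7 or 14 days, which gives 6 groups with 1 Affymetrix canine array each, hybridised with material prepared from 100 ng of total RNA. The sources used here do not give how many dogs were used, which specimens shared a dog or whether RNA was pooled. A difference between 2 arrays therefore has no replicate check and no p-value, and its size is all that is reported.

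Lysosomes digest proteins, glycans and lipids that reach them by endocytosis, phagocytosis and autophagy, and their enzymes work best at low pH. The V-ATPase makes that pH: its V1 sector hydrolyses ATP in the cytosol and its V0 sector carries protons across the membrane. In bone the same pump has a second use, since osteoclasts move it to the membrane facing the bone and dissolve mineral with the acid, while macrophages depend on it to digest what they engulf. Many of these genes are under the transcription factor TFEB, itself 1 of the members.

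Levels are given as log2(value + 1), where the value is a probe set's signal divided by the median of its array, and a difference of 1 is 2-fold for genes well above 1 and understated for weaker genes. Each gene was read from its probe set with the highest mean over the 6 arrays. A gene was kept when its mean was at or above the 40th percentile of all means (0.70 on this scale), which 10550 genes were, among them 41 of the 47 members: 17 pump subunits, 16 hydrolases, all 5 membrane proteins and 3 cofactors. ATP6V0A4, ATP6V0E2, ATP6V1B1, ATP6V1G3, TFEB and TPP1 lay below it, and none of their probe sets exceeded 1.12 on any array. Levels of different genes come from different probe sets and were not compared with each other. The array of the beta-TCP site at day 14 stands apart: its rank correlation with the other arrays was 0.723 to 0.779, against 0.832 to 0.905 among the other 5. Day 14 was also deposited on another scale than days 4 and 7, so that day 14 and that difference in processing cannot be told apart.

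The proton pump and the hydrolases parted at day 14. With beta-TCP, pump subunits read lower than control at day 4 and day 7 and higher at day 14, whereas hydrolases were on balance slightly higher at day 4 and lower at both later days. The hydrolases' direction depends on the processing: their median was -0.010 at day 4 by quantile normalization, 0.015 at day 14 by scaling to the 90th percentile, and 0.11 at day 7 with probe sets of the CfaAffx type alone. That of the pump at day 14 also differs between types of probe set in the 8 subunits read by both, as given further on. Membrane proteins were on balance lower on all 3 days. In bulk tissue, fewer cells that express a gene and less of its RNA per cell cannot be told apart.

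At day 4 the median difference, beta-TCP minus control, of the 41 genes was -0.19, against 0.17 for all kept genes. It was below 0 for 24 of 41 genes, against 37.4% of all kept genes. The pump stood at a median of -0.27 with 12 of 17 subunits below 0, the hydrolases at 0.19 with 6 of 16, and the membrane proteins at -0.25 with 4 of 5. Large differences were few: 1 gene was at least 2-fold lower, ATP6V1C2, and 1 at least 2-fold higher, CTSC, where 3.09% and 4.51% of all kept genes were. Relative to the median of all kept genes, the pump lay at -0.45 and the hydrolases at 0.021.

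At day 7 the downward shift was broader. The median of the 41 genes was -0.53, against -0.085 for all kept genes, and 35 of 41 were below 0, against 58.2%. All 3 role groups shared it, at -0.77 for the pump (15 of 17 below 0), -0.47 for the hydrolases (12 of 16) and -0.46 for the membrane proteins (5 of 5). Of the 41 genes, 8 were at least 2-fold lower, where 3.43% of all kept genes were: PLA2G15, ATP6V0B, GUSB, CTSD, ATP6V1D, PSAP, NPC2 and ATP6V0C. LIPA alone was at least 2-fold higher, where 2.96% of all kept genes were. The count of 8 depends on the scaling and becomes 4 relative to the median of all kept genes, where 278 of the 10550 kept genes were at least 2-fold lower.

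At day 14 the groups divided. The pump had a median of 0.59, with 4 of 17 subunits below 0, while all kept genes had a median of -0.23 and 63.1% of them were below 0. Hydrolases had a median of -0.35 with 13 of 16 below 0, and membrane proteins of -0.69 with 3 of 5. At least 2-fold lower were 6 of the 41 genes, CTSC, PPT1, ASAH1, GLB1, LAMP2 and CTSS, which is no larger a share than the 15.4% of all kept genes. ATP6V1F was at least 2-fold higher, as were 3.48% of all kept genes. These counts of 6 lower and 1 higher became 2 and 6 by quantile normalization, 2 and 8 by scaling to the 90th percentile, and 3 and 4 relative to the median of all kept genes. Relative to that median, 996 of the 10550 kept genes were at least 2-fold lower and 716 at least 2-fold higher. Relative to the median of all kept genes the pump stood at 0.82 and the hydrolases at -0.13, so that the pump stayed above and the hydrolases lay close to that median. No member was at least 2-fold different in the same direction on 2 or more days.

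**Figure D1:**
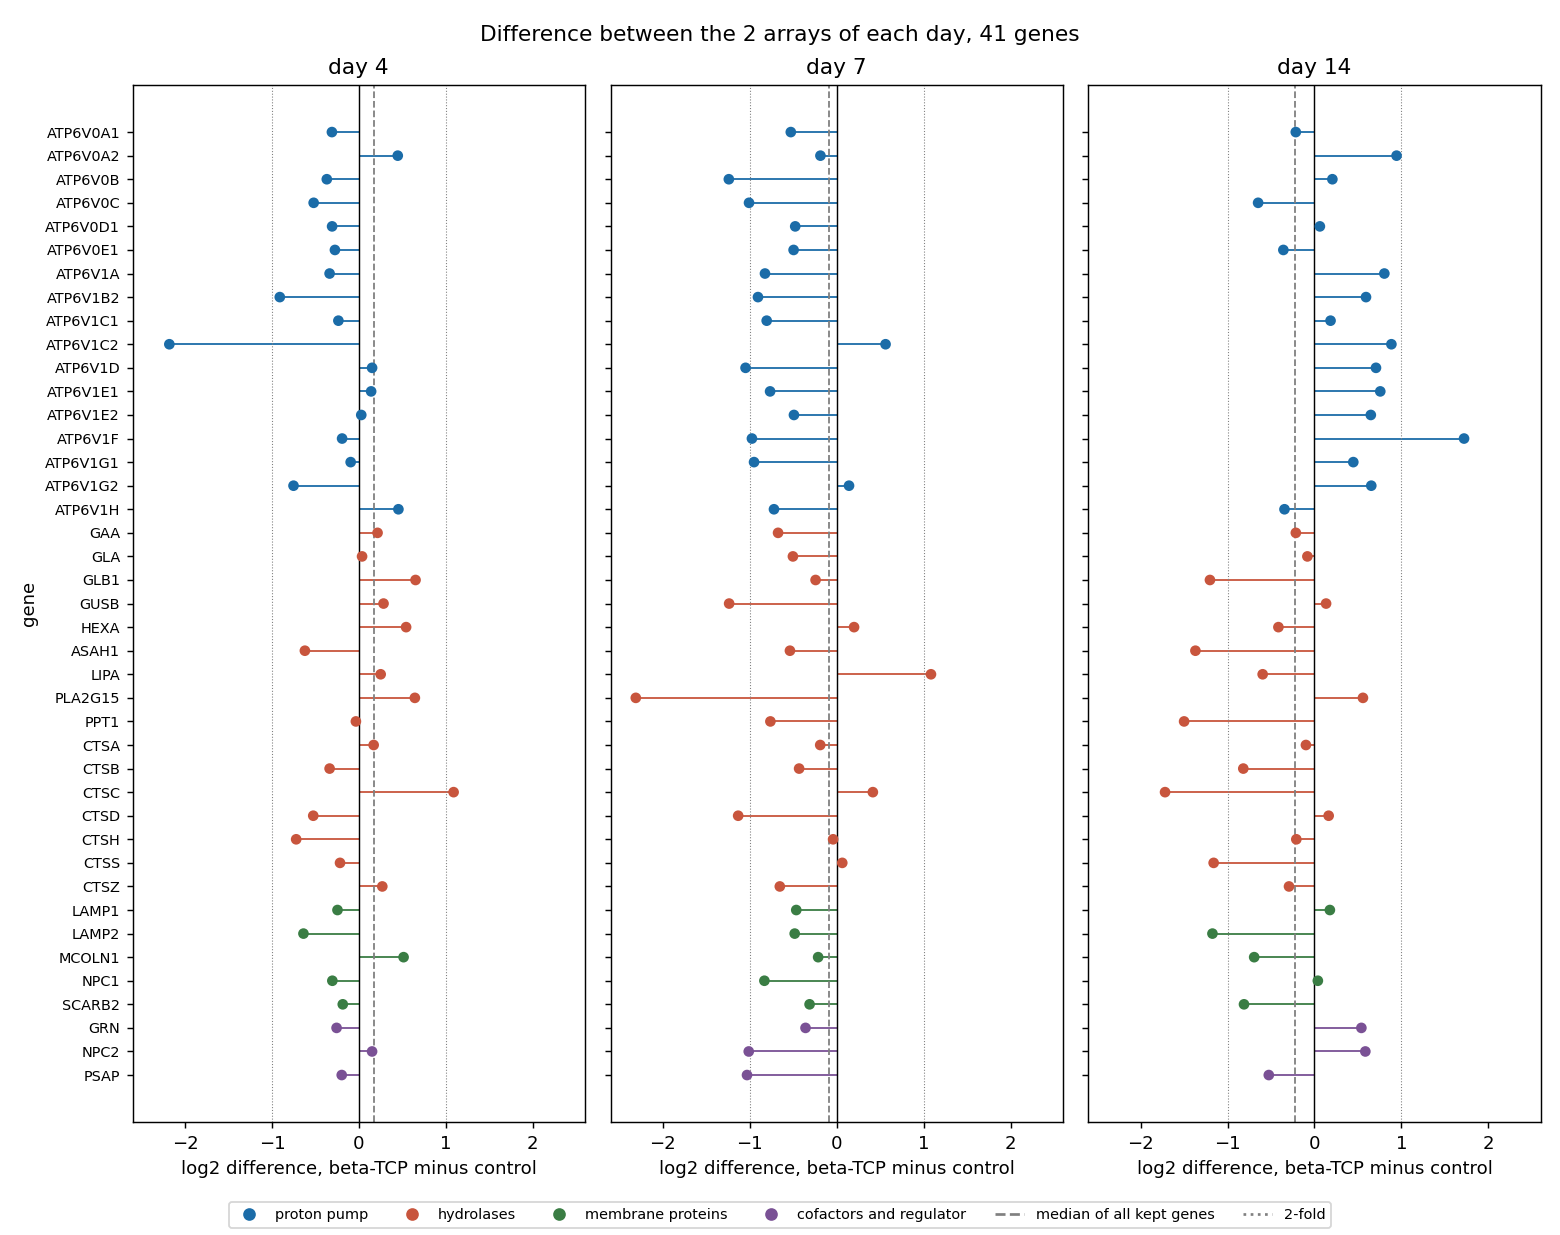
Log2 difference between the beta-TCP and the control array (horizontal axis) of the 41 kept genes (vertical axis) on each day, coloured by role group, with the median of all kept genes as a dashed line and 2-fold as dotted lines. Pump genes lie mostly left of 0 at day 7 (15 of 17) and mostly right of 0 at day 14 (13 of 17), where 13 of 16 hydrolases lie left.

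In the V1 sector, 10 of 11 subunits were above 0 at day 14, with a median of 0.65, and 9 of 11 were below 0 at day 7, with a median of -0.80. At day 14 the subunit furthest from control was ATP6V1F, a small subunit of the central stalk. Its level was 5.45 in the control and 5.25 with beta-TCP at day 4, 6.60 and 5.62 at day 7, and 5.10 and 6.82 at day 14. Day 14 with beta-TCP was its highest array of the 6 by this probe set, and the differences were -0.19, -0.97 and 1.72. The second kept probe set of ATP6V1F was highest on the day 7 control, at 6.17, against 5.68 on the day 14 beta-TCP array. Its differences were 0.094, -0.67 and 0.60. ATP6V1A, the catalytic subunit that binds ATP, read 3.44 and 3.11 at day 4, 3.96 and 3.14 at day 7, and 1.49 and 2.29 at day 14. Both day 14 arrays were thus below all 4 earlier ones for this gene, although beta-TCP was higher than control by 0.80 there. ATP6V1B2, the non-catalytic partner of the A subunit in most tissues, read 7.79 and 6.88 at day 4, 7.77 and 6.87 at day 7, and 5.66 and 6.25 at day 14. Its difference was -0.91 on both early days and 0.59 at day 14. The other kept probe sets of ATP6V1B2 read -0.40 and -1.02 at day 4, -0.83 and -0.51 at day 7, and 0.32 and -0.31 at day 14.

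Among the remaining V1 subunits, ATP6V1C2 had an order of arrays of its own. It encodes a C subunit known from a few tissues, epithelia among them, next to the widely expressed ATP6V1C1. Its level was 2.96 in the day 4 control and 0.78 with beta-TCP, then 1.24 against 1.81 on day 7 and 0.99 against 1.88 on day 14. The day 4 control array stood alone, above the 5 others, and the day 4 difference was -2.18 (-2.34 with its second kept probe set). The summed level of markers of stratified epithelium, 4 kept of 10, had the same order on these 2 arrays. It was 45.2 times the array median in the day 4 control, 2.83 in the day 4 beta-TCP array, and between 3.20 and 8.06 on the other 4. KRTDAP (4.66 and 0.84) and DSC2 (4.37 and 1.51) carried most of it. KRT13 (1.10 and 0.037) had that order too, and KRT10 (0.19 and 0.22) did not. KRT1, DSG3 and SFN were below the filter on mean level, and the other 3 had no probe set annotated here. Of those below the filter, DSG3 (1.76 and 0.31) and SFN (1.07 and 0.13) had the same order, and KRT1 (0.079 and 0.11) did not. The part of epithelium in the ATP6V1C2 difference was not tested.

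ATP6V1G2, a G subunit best known from neurons, was weak on all arrays, at 1.20 and 0.45 at day 4, 0.95 and 1.09 at day 7, and 0.79 and 1.45 at day 14. Its day 4 difference of -0.75 is a difference between values near the array median. Of the other subunits, ATP6V1C1, ATP6V1D, ATP6V1E1, ATP6V1G1 and ATP6V1H were highest of the 6 arrays on the day 7 control, at 6.60, 6.32, 8.40, 8.14 and 6.37. Their day 7 differences ran from -1.05 (ATP6V1D) to -0.72 (ATP6V1H), and at day 14 from -0.35 (ATP6V1H) to 0.76 (ATP6V1E1). ATP6V1E2, a form of subunit E known from testis, was weak, between 0.064 and 1.73.

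The V0 sector shared the day 7 difference but only in part the one at day 14. All 6 kept subunits were below 0 at day 7, with a median of -0.51, and 3 of 6 at day 14, with a median of -0.077. ATP6V0B, a proteolipid of the rotating ring, read 6.41 and 6.04 at day 4, 7.41 and 6.17 at day 7, and 5.74 and 5.94 at day 14. Its highest array was the day 7 control, and its day 7 difference of -1.24 was the lowest in the pump. ATP6V0C, the main proteolipid of the same ring, read 5.60 and 5.08 at day 4, 5.95 and 4.94 at day 7, and 3.27 and 2.62 at day 14. It was lower with beta-TCP on each day, by -0.52, -1.01 and -0.65, and both day 14 arrays were far below the rest. ATP6V0A2, an isoform of the large membrane subunit known from the Golgi and endosomes, was weak, at 0.59 and 1.04, 1.22 and 1.03, and 0.50 and 1.45 on the 3 days. ATP6V0A1, ATP6V0D1 and ATP6V0E1 ranged from 2.86 to 3.88, from 4.20 to 5.10 and from 7.25 to 8.27. By the probe sets used, none of their differences exceeded 0.53 in size. Their other kept probe sets read as low as -1.04 for ATP6V0A1 at day 4, and -0.83 for ATP6V0D1 and -1.27 for ATP6V0E1 at day 14.

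Among the 7 kept proteases the medians were -0.22, -0.19 and -0.29 on the 3 days, with 4, 5 and 6 of 7 below 0. At day 14 their median lay only -0.066 from that of all kept genes, with 4 of 7 below it. CTSC, which encodes cathepsin C and activates the serine proteases of neutrophil and mast cell granules, read 4.55 and 5.64 at day 4, 5.63 and 6.05 at day 7, and 5.51 and 3.79 at day 14. It was higher with beta-TCP by 1.09 at day 4 and lower by -1.72 at day 14, where the beta-TCP array was the lowest of the 6. Its only probe set is of the CfaAffx type, whose day 14 readings are compared with those of the Cfa type further on. The summed level of the 6 kept of 10 neutrophil markers, carried mostly by S100A8 and S100A9, was 1713 and 930.4 times the array median at day 4 and 300.1 and 113 at day 14. It had the opposite order to CTSC at day 4 and the same at day 14, when 4 of the 6 markers were below 0 and CAMP (2.02) and MMP8 (0.42) above it. MPO was below the filter, and the part of neutrophils in the CTSC differences was not tested. CTSD, the aspartic protease cathepsin D, read 7.66 and 7.14, then 8.65 and 7.52, then 7.83 and 7.99. Its day 7 control was the highest array, and its difference there was -1.13. CTSH, an aminopeptidase, was highest in the day 4 control, with 8.28 and 7.56 at day 4, 7.45 and 7.41 at day 7, and 7.16 and 6.95 at day 14, and its difference was -0.72 at day 4.

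Of the other proteases, CTSB and CTSS, cysteine proteases abundant in macrophages, ranged from 8.21 to 9.06 and from 7.90 to 9.06, both lowest on the day 14 beta-TCP array. Their day 14 differences were -0.82 and -1.16. CTSA, a carboxypeptidase that also protects other lysosomal enzymes, ranged from 4.11 to 4.93, and CTSZ from 5.73 to 6.86.

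All 5 glycosidases were above 0 at day 4, with a median of 0.28, and 4 of 5 were below 0 at day 7 and at day 14, with medians of -0.50 and -0.21. Relative to the median of all kept genes they lay at 0.11, -0.42 and 0.013 at days 4, 7 and 14. At day 14, 2 of 5 were below that median. GUSB, beta-glucuronidase, read 4.00 and 4.28 at day 4, 6.69 and 5.45 at day 7, and 5.32 and 5.46 at day 14. Control and beta-TCP were therefore close on days 4 and 14, and the day 7 control array alone stood out, with a difference of -1.24. GLB1, beta-galactosidase, read 3.02 and 3.68, 4.39 and 4.15, and 4.41 and 3.21, with differences of 0.65 at day 4 and -1.20 at day 14. HEXA, the alpha subunit of hexosaminidase, read 2.43 and 2.98 at day 4 and 3.15 and 3.35 at day 7, and at day 14 it read 1.58 with beta-TCP, lower than control by 0.42. By this probe set it was 1 of few members above control at both day 4 (0.54) and day 7 (0.20), and both day 14 arrays were below the earlier ones. Its second kept probe set, which was weaker, read -0.32 at day 4 and -0.11 at day 7. GAA, which degrades lysosomal glycogen, read 1.98 and 2.20, 3.90 and 3.22, and 2.96 and 2.74, and GLA ranged from 3.75 to 4.27.

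The 4 kept lipid-degrading enzymes differed widely among themselves. PLA2G15, the phospholipase A2 of the lysosome, read 2.05 and 2.70 at day 4, 5.94 and 3.63 at day 7, and 3.33 and 3.89 at day 14. It had the lowest difference of all members on any day, -2.31 at day 7, between differences of 0.64 and 0.56 on the other days. ASAH1, acid ceramidase, was below control on each day by this probe set (its second kept one read 0.11 at day 7), with 7.97 and 7.35, 7.39 and 6.85, and 7.30 and 5.93, and a day 14 difference of -1.37. PPT1, which removes fatty acids from proteins, read 6.68 and 6.65, 7.58 and 6.82, and 6.89 and 5.39, equal at day 4 to within 0.034 and apart by -1.50 at day 14. LIPA, the acid lipase, was weak, at 0.98 and 1.23, 0.28 and 1.36, and 0.98 and 0.39, so its day 7 difference of 1.08 rests on values near the array median.

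Among the membrane proteins, LAMP2 and LAMP1, the main glycoproteins that line the lysosome, differed in pattern. LAMP2, also needed for autophagy, read 7.63 and 7.00 at day 4, 6.98 and 6.50 at day 7, and 6.57 and 5.39 at day 14. By this probe set LAMP2 was lower with beta-TCP on each day, by -0.64, -0.48 and -1.17, and lower on the later arrays. Another kept probe set read 0.12 at day 7. LAMP1 ranged only from 6.68 to 7.46, with differences of -0.25, -0.46 and 0.18. NPC1, the membrane cholesterol exporter, ranged from 2.21 to 3.15, SCARB2, the sorting receptor of glucocerebrosidase, from 4.89 to 6.11, and MCOLN1, a calcium channel, from 2.05 to 3.50. Of the soluble cofactors, NPC2 passes cholesterol to NPC1, PSAP is the precursor of the saposins that present lipids to their enzymes, and GRN encodes progranulin. They ranged from 5.60 to 7.41, from 6.14 to 7.72 and from 6.31 to 7.30, were all highest on the day 7 control, and had day 7 differences of -1.01, -1.03 and -0.36.

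The day 7 control array was the highest of the 6 for 25 of the 41 genes (61.0%), against 20.3% of all kept genes. It was so for 11 of 17 pump subunits, 8 of 16 hydrolases, 3 of 5 membrane proteins and 3 of 3 cofactors. The same array enters the day 7 difference and both time steps of the control sites, so these values are not independent of each other. From day 4 to day 7 in the control sites, the median difference of the members was 0.72; 16 of 41 were at least 2-fold higher and 2 at least 2-fold lower, where 15.9% and 4.74% of all kept genes were. From day 7 to day 14 the median was -0.74; 14 of 41 were at least 2-fold lower and 0 higher, where 6.29% and 4.2% were, and all 17 pump subunits were below 0 with a median of -1.27. The hydrolases' median over that step was -0.33.

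In the beta-TCP sites the steps were these. From day 4 to day 7 the median of the members was 0.20, with 3 of 41 at least 2-fold higher and 1 lower, where 4.86% and 2.58% of all kept genes were. From day 7 to day 14 it was -0.40, with 6 of 41 at least 2-fold lower and 2 higher, where 16.6% and 4.82% were. Over that step the hydrolases' median was -0.43 and that of the membrane proteins -0.91, against -0.33 and -0.41 in the control sites, and the difference between treatments was not tested. The 2 higher genes were the V1 subunits ATP6V1F and ATP6V1E2, at 1.20 and 1.07, and the lowest were ATP6V0C (-2.32), CTSC (-2.26) and HEXA (-1.76).

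**Figure D2:**
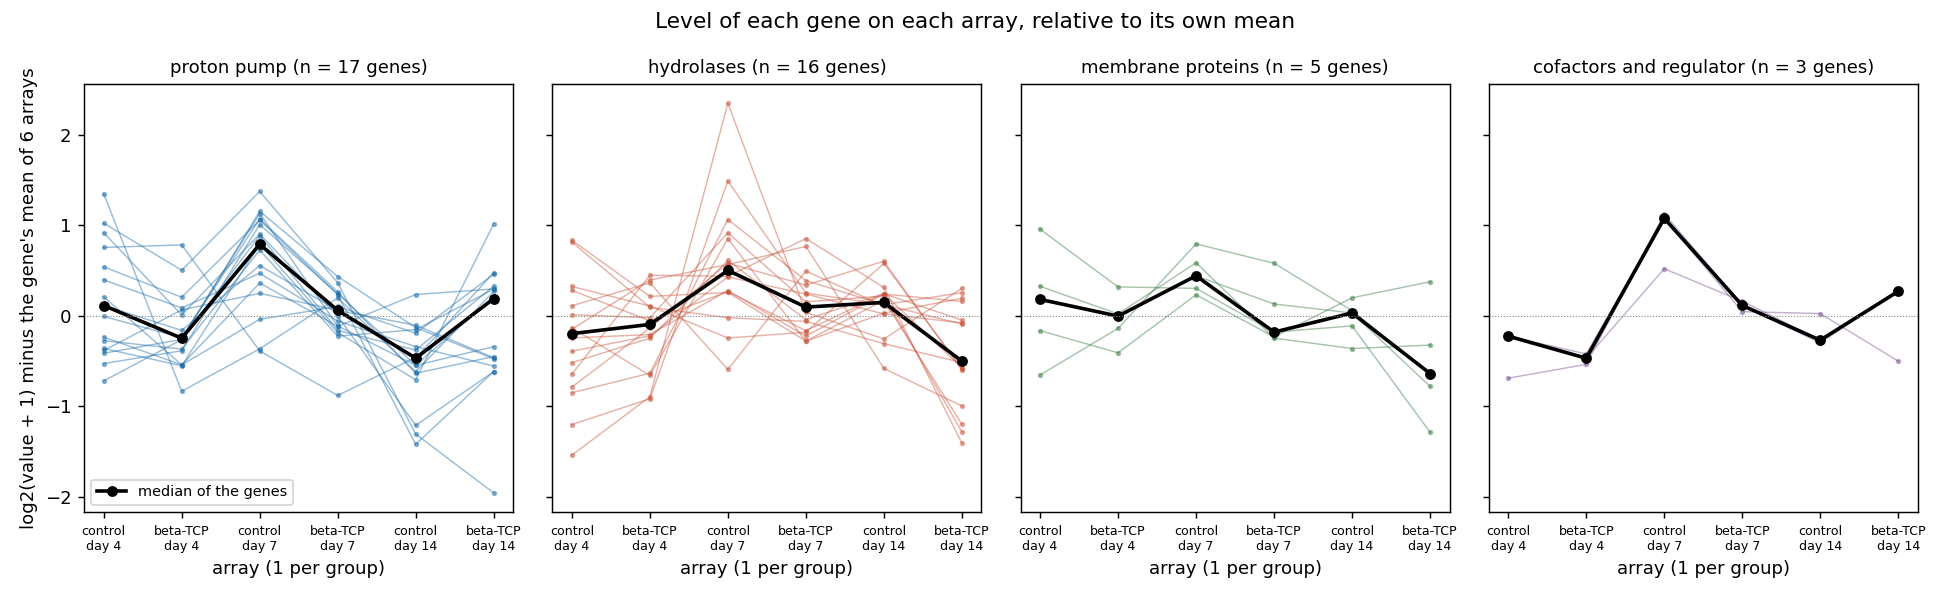
Level of each kept gene on each of the 6 arrays (horizontal axis), as log2(value + 1) minus the gene's own mean (vertical axis), with 1 thin line per gene and the median of each role group in black. The median of each of the 4 groups is highest on the day 7 control array, and hydrolases and membrane proteins are lowest on the day 14 beta-TCP array.

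The only test the design allows is an additive limma fit of day and treatment over all 6 arrays, which averages the treatment effect over days and leaves 2 residual degrees of freedom. For the average beta-TCP effect, limma with Benjamini-Hochberg adjustment called 0.0% of all kept genes and 0 of the 41 members. At an unadjusted p under 0.05 there were 3 members, all lower, and 513 of all kept genes. These were ASAH1 at -0.84 ± 0.32 (SE), LAMP2 at -0.76 ± 0.31 and ATP6V0C at -0.73 ± 0.31, each below control on 3 of 3 days by the probe set used. Another kept probe set was above control for each gene on at least 1 day, by 0.11 for ASAH1 and 0.12 for LAMP2 at day 7 and by 0.54 for ATP6V0C at day 14. The lowest adjusted p from limma among the members was 0.860.

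Between days, averaged over treatments, limma called 0.474% of all kept genes for day 7 minus day 4 and 0 of 41 members. An unadjusted p under 0.05 by limma was found for 1261 of the 10550 kept genes and for 9 members. The members with the smallest p-values were GUSB (1.93 ± 0.45, adjusted p = 0.0963 by limma), PLA2G15 (2.41 ± 0.63) and GAA (1.47 ± 0.39). Without the day 14 arrays, which leaves 1 residual degree of freedom, 8 members passed: PLA2G15, GUSB, GAA, ATP6V1H, NPC2, MCOLN1 and ATP6V1E1 rose and ATP6V1E2 fell, in a fit that called 1105 of all kept genes. For day 14 minus day 7 limma called 0.0% of all kept genes and 0 of 41 members. Of the 10550 kept genes, 1026 had an unadjusted p under 0.05 by limma, and 9 members did. The first of these members were ATP6V0C (-2.50 ± 0.38, adjusted p = 0.0542 by limma), ATP6V1A (-1.66 ± 0.45) and HEXA (-1.45 ± 0.40). ATP6V0C and ATP6V1A were read from CfaAffx probe sets, whose shift between days is given in the next paragraph.

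For day 14 minus day 4 limma called 4.91% of all kept genes and 1 of 41 members. ATP6V0C fell by 2.39 ± 0.38 (SE; adjusted p = 0.00643 by limma), with differences of -2.33 in the control and -2.46 in the beta-TCP sites. LAMP2 (-1.34 ± 0.38) and ATP6V1A (-1.39 ± 0.45) followed without passing. The call on ATP6V0C rests on 1 of its 2 kept probe sets: with probe sets of the Cfa type alone the difference was -1.17, with an adjusted p of 0.122 by limma. Without a filter on low values the adjusted p from limma was 0.0528.

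Osteoclast markers had the same order of control and beta-TCP as the pump at days 7 and 14, and the opposite order at day 4. Macrophage markers had the order of the pump on all 3 days by summed level, but not by median difference at day 14. The summed level of the 7 kept of 11 osteoclast markers was 589 and 700.1 times the array median in the control and beta-TCP arrays at day 4, 2633 and 1318 at day 7, and 904 and 1791 at day 14. Summed in the same way, the 17 pump subunits gave 1029 and 840.1, 1792 and 1013, and 741 and 967. The osteoclast markers' median difference was 0.21, -0.80 and 1.31 on the 3 days, with 6 of 7 below 0 at day 7 and 6 of 7 above 0 at day 14. TNFRSF11A, at no more than 1.09 on any array, was the exception on both days, at 0.49 and -0.025. ACP5, the tartrate-resistant phosphatase, and MMP9 were among these markers at 8.75 and 9.57 on the day 7 control. CALCR and NFATC1 were below the filter, at no more than 0.78 and 0.14 on any array. TCIRG1 and ATP6V0D2, also counted among these markers, are pump subunits of the osteoclast that are not members here. They read 6.89 and 8.20, and 4.86 and 6.25, at day 14. The 14 macrophage markers summed to 474 and 348 at day 4, 649.9 and 367 at day 7, and 344 and 369.6 at day 14, with median differences of -0.26, -0.31 and -0.34. At day 14, 9 of the 14 were below 0, lowest MARCO (-3.39), CD163 (-2.03) and MRC1 (-1.66), while CD68 was higher by 1.59. C1QB and MSR1 were as low as 0.054 and 0.040 on 1 array each. The part of osteoclasts and macrophages in the differences of the pump and of the hydrolases was not tested.

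**Figure D3:**
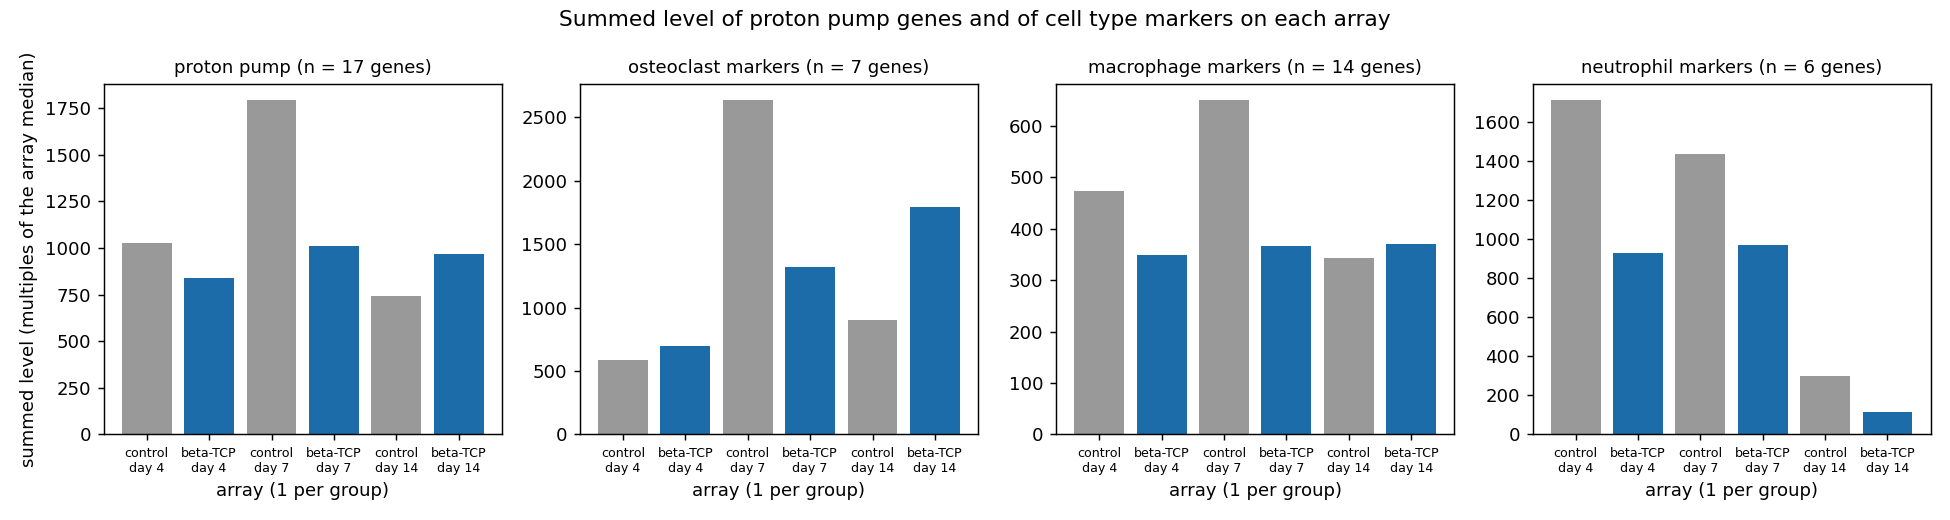
Summed level, in multiples of the array median (vertical axes, starting at 0), of the kept pump genes and of the kept markers of osteoclasts, macrophages and neutrophils on each array (horizontal axis; grey control, blue beta-TCP). The pump, osteoclast and macrophage sums are all highest on the day 7 control array (1792, 2633 and 649.9) and all higher with beta-TCP than control at day 14. Of the 14 macrophage markers, 9 are lower with beta-TCP at day 14 and 5 higher, CD68 the most, by 1.59. At day 4 the osteoclast sum is higher with beta-TCP, and the pump and macrophage sums are lower.

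Probe sets of the same gene differed most at day 14. Of the 41 genes, 30 had at least 2 kept probe sets. Their readings of the same difference lay over 1 apart in 0 of 30 genes at day 4, in 2 at day 7 (ATP6V1H, -0.72 and 0.35, and PSAP, from -1.03 to 0.23) and in 18 at day 14. Among all kept genes with at least 2 probe sets the shares were 9.30%, 10.7% and 38.1%. In the pump, the lowest and highest day 14 readings were -1.70 and 0.21 for ATP6V0B, -0.65 and 0.54 for ATP6V0C, -0.48 and 0.71 for ATP6V1D, -0.77 and 0.76 for ATP6V1E1, 0.60 and 1.72 for ATP6V1F, and -1.63 and -0.35 for ATP6V1H. Of these 6 subunits, ATP6V1F was above 0 and ATP6V1H below 0 on both probe sets, and the readings of the other 4 spanned 0.

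Of the 6 hydrolases with readings over 1 apart at day 14, 5 kept their direction but not their size. The second probe set read -3.35 against -0.82 for CTSB, -4.02 against -1.16 for CTSS, -2.54 against -0.29 for CTSZ, -1.71 against -0.10 for CTSA and -1.58 against -0.082 for GLA. CTSD was the exception, at -1.86 and 0.16. Readings also spanned 0 for NPC2 (-1.70 and 0.59), PSAP (-1.51 to 0.47), GRN (-1.22 to 0.54), LAMP1 (-1.25 and 0.18) and LAMP2 (-1.22 to 0.0057), and stayed below it for SCARB2 (-1.86 and -0.81).

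The array has probe sets of a type named Cfa and of a type named CfaAffx, and 24 members had a kept probe set of both. The CfaAffx reading was the lower one in 7 of 24 genes at day 4, in 4 at day 7 and in 19 at day 14. The median of CfaAffx minus Cfa at day 14 was -0.95 in the members and -0.40 in 3746 genes of all kinds. Within these genes, the day 14 medians by Cfa and by CfaAffx were 0.19 and -0.50 for 8 pump subunits, -0.29 and -1.71 for 9 hydrolases, and -0.39 and -1.21 for 4 membrane proteins. The pump thus stood above the hydrolases by either type, but its direction against control at day 14 was not the same by both. At day 7 the pump stood at -0.65 and -0.71, and the hydrolases at -0.50 and 0.10.

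**Figure D4:**
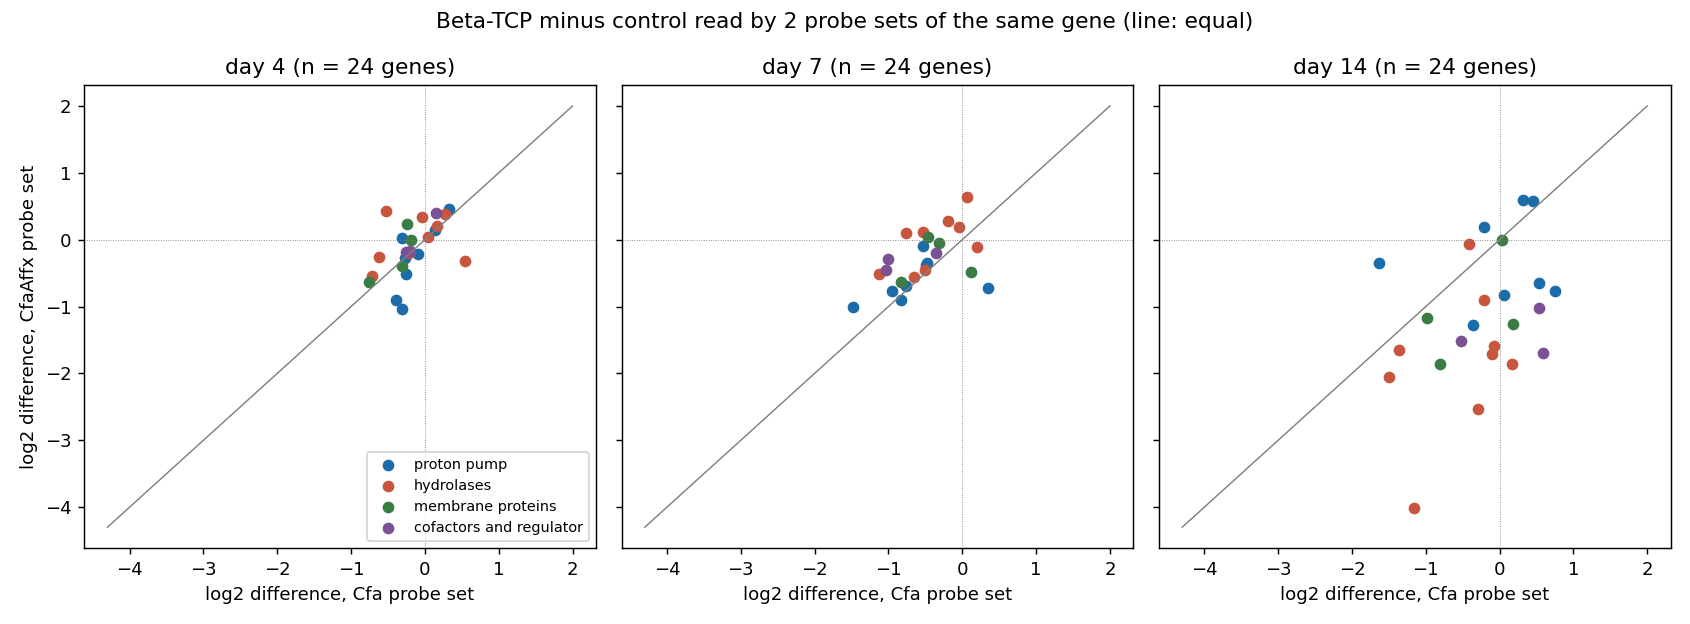
Beta-TCP minus control (log2) read by the Cfa probe set (horizontal axis) and by the CfaAffx probe set (vertical axis) of the same 24 genes on each day, coloured by role group, with a line of equal readings. Points lie near the line at day 4, and 19 of 24 lie below it at day 14, the hydrolase CTSS lowest.

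A list of 65 other lysosomal genes (hydrolases, membrane proteins, sorting receptors and pump-associated proteins outside the members, 51 of them kept) gave medians of 0.13, -0.33 and -0.022 on the 3 days. At least 2-fold lower were 1, 7 and 8 of 51, and at least 2-fold higher 1, 1 and 4, against the background shares given above. SLC11A1, a metal transporter of phagosomes, was at least 2-fold lower on all 3 days. It read 8.20 and 7.07 at day 4, 6.55 and 5.35 at day 7, and 5.63 and 3.94 at day 14, with an average effect of -1.34 and an adjusted p of 0.266 by limma. At day 4 the lowest were SLC11A1 (-1.13), SORT1 (-0.81) and NAGPA (-0.69), and the highest NAGLU (1.04), HYAL2 (0.87) and AGA (0.76). At day 7 the lowest were the pump accessory protein ATP6AP1 (-1.40), LAPTM5 (-1.37) and TCIRG1 (-1.21), and the highest CTSO (1.28), NAGPA (0.73) and AGA (0.58).

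At day 14 OSTM1 (-1.87), SLC11A1 (-1.69) and the sialidase NEU1 (-1.45) were lowest in that list, while ACP5 (2.12), CD68 (1.59) and ATP6V0D2 (1.40) were highest; ACP5, CD68 and ATP6V0D2 also stand in the marker lists. Between days, averaged over treatments, limma called ACP5 and NAGLU (both higher) for day 7 minus day 4, and 4 genes for day 14 minus day 4, of which AGA, CTSF and SGSH rose and SLC11A1 fell. No gene of the list passed for the average effect of beta-TCP. Genes of mTORC1 and its lysosomal anchors, the Rag and Ragulator complexes (16 kept), had medians of 0.12, -0.24 and -0.11. The 25 kept autophagy genes had medians of 0.061, -0.24 and -0.26, with no member of either list called for the average effect by limma.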

How the data were processed

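The values were read from the table of the series. For days 4 and 7 the authors deposited a ratio, each signal over its array's median (medians 1.00, lowest value 0.01). For day 14 they deposited an undivided intensity (medians 12.0 for control and 6.2 for beta-TCP). Both units were read from the values. The sources used here name no software or scaling. All 42860 probe sets entered the median by which an array was divided, a pseudocount of 1 was added and log2 taken. Genes were named by a table of probe sets: 29254 had 1 gene, 439 several and 13167 none, and 27680 of the 29254 (45 of the 47 member genes) matched RefSeq's UU_Cfam_GSD_1.0 by ID, used for names only. Left out were 90 pairs of probe sets ending in _a_at and _at, none of a member. The fit was made with limma 3.58.1 in R 4.3.3 and tested on simulated data, with calls at an adjusted p under 0.05. Members, lists and tests were chosen with earlier results of these data known.

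Genes with values on all arrays are the 4 lowest and 4 highest members of each day and the 3 with the smallest p of each limma contrast. Members whose kept probe sets lay over 1 apart are named, as are the 3 highest and 3 lowest other lysosomal genes of each day. CTSS, CTSB and the members at least 2-fold different are named for their counts. With 1 array per group, the spread behind the p-values is the departure from the additive fit. It mixes differences between arrays, between animals and in the effect of beta-TCP between days.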

Additional observations from a re-analysis of the deposited data

Results flagged for a closer look

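The median difference of the pump subunits, beta-TCP minus control, was -0.77 at day 7 and 0.59 at day 14, in opposite directions on the 2 days. CTSC was higher with beta-TCP by 1.09 at day 4 and lower by -1.72 at day 14. Its only probe set is of the CfaAffx type, which read lower than Cfa at day 14 in 19 of 24 members with both. With 1 array per group, neither difference between days was tested.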

How the results depend on the processing

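With 1 array per group, no replicate could be left out, and the precision of a single difference is unknown. Over the other settings tried, 126 summary results stayed within 1.5 times of the main value, the medians also on the same side of 0. The other 78 did not, though some of those medians kept their side. The pump median was below 0 at days 4 and 7 and above 0 at day 14 under all 10 settings, although the subunits kept differ between settings and the 8 read by both types of probe set gave 0.19 by Cfa and -0.50 by CfaAffx at day 14. The membrane proteins' median was below 0 on all days under all 10. Single genes were followed only for the 4 lowest and 4 highest members of each day, and no difference at least 2-fold in size turned its direction there. PLA2G15, GUSB and CTSC have 1 probe set each, so the choice of probe set could not turn them. That of CTSC is of the CfaAffx type, which read lower than Cfa at day 14 in 19 of 24 members with both. Outside the genes followed, kept probe sets spanned 0 for PSAP at day 7 (-1.03 to 0.23) and LAMP2 at day 14 (-1.22 to 0.0057). The causes of the shifts were not tested, except that leaving out arrays or probe sets changes what enters.

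By quantile normalization, scaling to the 90th percentile and centring on all kept genes in turn, the members at least 2-fold lower became 2, 2 and 2 at day 4 (main count 1), 4, 4 and 4 at day 7 (main 8) and 2, 2 and 3 at day 14 (main 6). Those at least 2-fold higher became 0 in each at day 4 (main 1) and 6, 8 and 4 at day 14 (main 1). In the same order, the day 4 hydrolase median was -0.010, -0.028 and 0.021, the day 14 hydrolase median -0.063, 0.015 and -0.13, and the median of all members at day 14 was 0.31, 0.33 and 0.15. Scaling to the 90th percentile and centring gave day 4 medians of -0.44 and -0.36 for the members, -0.53 and -0.45 for the pump, and -0.50 and -0.42 for the membrane proteins. The membrane median was -0.30 at day 7 by quantile normalization, and -0.33 and -0.34 at day 14 by quantile and 90th percentile scaling. By centring, 532, 278 and 996 of the 10550 kept genes were at least 2-fold lower at days 4, 7 and 14, and 241 and 716 higher at days 4 and 14. Such gene counts over all kept genes were made only for the main setting and for centring, so the other 2-fold counts of this section have no background share.

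A pseudocount of 0.25 gave 2 members at least 2-fold lower at day 4 and 6 higher at day 14. A pseudocount of 4 gave 5 lower and 0 higher at day 7, hydrolase medians of 0.12 at day 4 and -0.22 at day 14, a membrane median of -0.44 and a pump median of 0.27 at day 14.

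The mean of all probe sets gave 4 members at least 2-fold lower at day 7, member medians of -0.049 at day 4 and -0.54 at day 14, membrane medians of -0.093 and -0.21 at days 4 and 7, hydrolase medians of -0.12 and -0.72 at days 7 and 14, and a pump median of 0.11 at day 14. Cfa probe sets alone gave 0 members at least 2-fold higher at days 4 and 7, a hydrolase median of 0.10 at day 4, and day 14 medians of 0.039 for members, 0.38 for the pump and -0.39 for membrane proteins. CfaAffx probe sets alone gave 1 member at least 2-fold lower at day 7, 15 lower and 0 higher at day 14, member medians of 0.0093, -0.31 and -0.96, membrane medians of -0.0015, -0.21 and -1.17, hydrolase medians of 0.11 and -1.71 at days 7 and 14, and a pump median of 0.19 at day 14.

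In limma, members called for day 14 minus day 7 were 1 in place of 0 by quantile normalization, by centring and without the day 4 pair (ATP6V0C in each). Of all kept genes, 17 of 10545, 12 of 10550 and 83 of 10550 were called there. For day 14 minus day 4 they were 2 of 41 by quantile normalization and 90th percentile scaling and 2 of 30 with CfaAffx probe sets. There 846 of 10545, 821 of 10533 and 136 of 8302 genes were called. Members called were 0 with no filter, with the mean of probe sets and with Cfa probe sets, where 19 of 15153, 179 of 9698 and 601 of 5994 genes were. For day 7 minus day 4 they were 2 of 35 with Cfa probe sets and 8 of 41 without the day 14 pair, where 104 of 5994 and 1105 of 10550 genes were called. No setting called a member for the average effect of beta-TCP.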
